A study of Mus musculus with 6 samples.

Results

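A set of 10 genes for surface receptors of macrophages was followed in RNA sequencing counts of mouse epidermis: Cd163, Mrc1, Msr1, Marco, Cd36, Csf1r, Adgre1, Cd68, Fcgr1 and Cd300ld. They are 10 of the 47729 genes in the deposited table, and each name matched 1 row. The libraries came from wild-type C57BL/6 mice, 3 under the agent AKBA gel and 3 under the agent control gel, and the epidermis had been freed from the dermis with Dispase II. AKBA usually stands for acetyl-11-keto-β-boswellic acid, which occurs in Boswellia resin. Short codes beginning with IMQ describe the control libraries; these letters are not explained, and no further treatment of either group is named in the labels. Neither age nor pooling is stated, and 3 separate animals a group cannot be assumed, so errors and p-values reflect the spread among libraries alone, which may be technical. The 10 genes were chosen with their values in this comparison already known, so their differences between the gels are a description and not a test.

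Macrophages are resident phagocytes that clear debris, damaged proteins, modified lipids and microbes. Their survival depends on signals through the CSF1 receptor, and the transcription factor PU.1, made from Spi1, is needed for the lineage. Scavenger receptors are a mixed group of membrane proteins that bind and take up altered or foreign ligands. In skin most macrophages lie in the dermis, while the macrophage-related Langerhans cells lie in the epidermis.

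The libraries held 19066045 to 22760432 counts. Levels are given as CPM, counts divided by the TMM-scaled library size and put on the usual per-library scale, and 3 counts equal 0.128 to 0.159 CPM. The tissue was labelled epidermis, and the summed keratinocyte markers stood at 42883 to 69214 CPM. Fibroblast markers summed to 19685 to 36225 CPM and skeletal muscle markers to 4051 to 7538 CPM in the same libraries, so transcripts of other layers were present. On the first principal component, which held 42.1% of the variance, AKBA gel replicate 2 (-43.8) and control gel replicate 3 (46.2) lay at the ends. All AKBA libraries lay below all control libraries on it, with AKBA gel replicate 3 (-8.74) and control gel replicate 1 (-0.081) nearest each other.

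Among the scavenger receptors, the haemoglobin receptor and the mannose receptor were lower with AKBA gel in every library. Cd163 takes up complexes of haemoglobin and haptoglobin (chromosome 6, 124304656 to 124330527, plus strand, GRCm38). It stood at 85.4, 76.4 and 105 CPM in AKBA gel replicates 1 to 3 and at 149, 145 and 168 CPM in control gel replicates 1 to 3. The groups did not overlap, and the highest AKBA library lay well under the lowest control library. The log2 fold change (AKBA over control) was -0.79 ± 0.14 (SE), a level of 0.578 of control. Mrc1, the mannose receptor CD206 (chromosome 2, 14229392 to 14332057, plus strand), stood at 190.0, 139 and 208 CPM in the AKBA libraries and at 275, 299 and 302 CPM in the control libraries. Its groups did not overlap either, and the 3 control libraries lay close together (292 ± 14.9 CPM, SD, n = 3) while the AKBA libraries spread more widely (179 ± 35.8 CPM). The log2 fold change of Mrc1 was -0.71 ± 0.17.

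The pair of class A scavenger receptors differed in pattern. Msr1, which binds modified lipoproteins (chromosome 8, 39581685 to 39642673, minus strand), stood at 8.63, 7.97 and 8.78 CPM in the AKBA libraries and at 15.1, 16.7 and 18.0 CPM in the control libraries. Both groups were tight and far apart. Its log2 fold change of -0.97 ± 0.13 was the most negative of the 10 genes. Marco, a relative with a collagenous stalk (chromosome 1, 120474538 to 120505024, minus strand), stood at 4.95, 7.71 and 7.37 CPM in the AKBA libraries and at 6.09, 5.20 and 13.03 CPM in the control libraries. Here 1 library, control gel replicate 3, was high, and the other control libraries lay among the AKBA libraries. The log2 fold change of Marco was -0.28 ± 0.37 and turned to 0.24 ± 0.26 without control gel replicate 3.

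Cd36, the class B receptor for fatty acids and oxidised lipids, was the only 1 of the 10 genes with a positive difference (chromosome 5, 17781690 to 17888801, minus strand). It stood at 229, 129 and 159 CPM in the AKBA libraries and at 185, 134 and 156 CPM in the control libraries, and the groups overlapped almost fully. AKBA gel replicate 1 was the highest library and AKBA gel replicate 2 the lowest. The log2 fold change was 0.12 ± 0.22, and -0.13 ± 0.19 without AKBA gel replicate 1. Cd36 is made by adipocytes and capillary endothelium as well as by macrophages.

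The lineage genes showed smaller differences, with overlap in 2 of 3. Csf1r encodes the receptor for CSF1 and IL-34 (chromosome 18, 61100598 to 61132149, plus strand). It stood at 187, 134 and 202 CPM in the AKBA libraries and at 278, 202 and 268 CPM in the control libraries. The groups did not overlap, but AKBA gel replicate 3 (201.6 CPM) and control gel replicate 2 (201.7 CPM) nearly touched. Its log2 fold change was -0.51 ± 0.19. On the opposite strand 873 exon bases of Csf1r overlap Hmgxb3, and since no source says that reads were counted by strand, those of this stretch cannot be told apart.

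Adgre1, which encodes the F4/80 antigen (chromosome 17, 57358691 to 57483527, plus strand), stood at 115, 119.7 and 156 CPM in the AKBA libraries and at 191, 122 and 187 CPM in the control libraries. Control gel replicate 2 fell within the AKBA range. Cd68, a lysosomal glycoprotein of phagocytes (chromosome 11, 69664213 to 69666153, minus strand), stood at 52.8, 41.3 and 56.3 CPM in the AKBA libraries and at 62.8, 53.2 and 69.8 CPM in the control libraries. Again control gel replicate 2 was the library that overlapped. The log2 fold changes were -0.35 ± 0.20 for Adgre1 and -0.30 ± 0.15 for Cd68. Single libraries moved both, to -0.54 for Adgre1 without control gel replicate 2 and to -0.18 for Cd68 without AKBA gel replicate 2. Without both AKBA gel replicate 2 and control gel replicate 3 they were -0.20 for Adgre1, -0.088 for Cd68 and -0.30 for Csf1r.

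The immunoglobulin-type receptors were both apart between the gels, as were Cd163, Mrc1 and Msr1 but not Marco and Cd36. Fcgr1, the high-affinity IgG receptor CD64 (chromosome 3, 96282909 to 96293969, minus strand), stood at 5.45, 6.38 and 7.24 CPM in the AKBA libraries and at 12, 8.82 and 9.58 CPM in the control libraries. The groups did not overlap (log2 fold change -0.67 ± 0.19). Cd300ld, a member of the CD300 family of paired myeloid receptors (chromosome 11, 114982274 to 114989922, minus strand), stood at 11.3, 11.7 and 12.7 CPM in the AKBA libraries and at 18.2, 22.7 and 25.1 CPM in the control libraries. The AKBA libraries were close together (11.9 ± 0.699 CPM) and all below the control libraries (22 ± 3.48 CPM), with a log2 fold change of -0.88 ± 0.15.

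**Figure D1:**
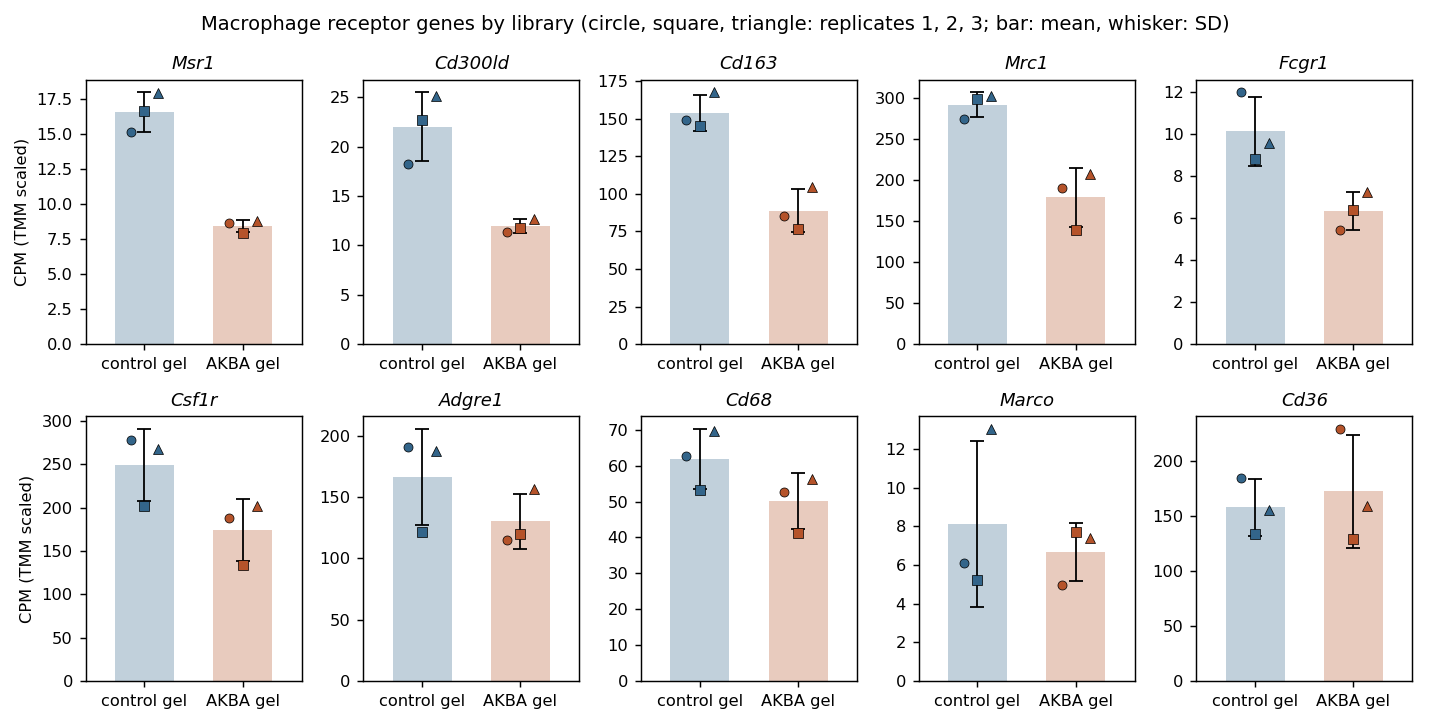
Level of each receptor gene in CPM (y axis, from 0) with control gel and AKBA gel; points are libraries, bars the mean and whiskers the SD (n = 3). Msr1, Cd300ld, Cd163, Mrc1, Fcgr1 and Csf1r have no overlap between the gels, while Adgre1, Cd68, Marco and Cd36 overlap.

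RefSeq promoter windows (GRCm38.p6, 250 bases before to 50 after the start) were at hand for 7 of the 10 genes. They are shown for 3 genes whose gels did not overlap, Cd300ld, Cd163 and Mrc1, and for Cd68, whose gels did, to set both kinds side by side. Each line gives the window up to shortly before the start, 5′ to 3′ on the strand of the gene, and capitals mark GAGGAA or its complement TTCCTC, letters that PU.1 binds.
Cd300ld: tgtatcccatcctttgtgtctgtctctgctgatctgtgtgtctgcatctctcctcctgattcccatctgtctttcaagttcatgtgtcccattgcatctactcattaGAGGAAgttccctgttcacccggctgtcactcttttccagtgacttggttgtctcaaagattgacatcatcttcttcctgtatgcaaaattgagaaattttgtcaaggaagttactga
Cd163: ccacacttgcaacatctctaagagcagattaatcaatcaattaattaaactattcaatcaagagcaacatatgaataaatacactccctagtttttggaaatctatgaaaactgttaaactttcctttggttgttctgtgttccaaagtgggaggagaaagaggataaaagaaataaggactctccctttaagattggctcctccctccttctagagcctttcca
Mrc1: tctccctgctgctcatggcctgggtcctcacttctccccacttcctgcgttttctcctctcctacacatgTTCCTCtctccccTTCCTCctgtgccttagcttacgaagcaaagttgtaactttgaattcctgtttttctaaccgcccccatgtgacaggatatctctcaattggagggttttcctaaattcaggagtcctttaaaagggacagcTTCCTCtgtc
Cd68: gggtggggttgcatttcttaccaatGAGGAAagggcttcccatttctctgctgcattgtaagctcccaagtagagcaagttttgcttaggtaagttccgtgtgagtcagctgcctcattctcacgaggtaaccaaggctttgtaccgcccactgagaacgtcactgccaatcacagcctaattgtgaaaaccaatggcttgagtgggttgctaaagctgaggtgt

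The lines span chr11:114989912-114990136 (minus strand), chr6:124304401-124304625 (plus), chr2:14229164-14229388 (plus) and chr11:69666196-69666420 (minus). On either strand GAGGAA occurred in 5 of the 7 receptor windows, beside 28.3% of 32841 windows of the same length. Mrc1 held it at 3 places, Cd68 at 2 in its whole window, and Cd300ld, Marco and Fcgr1 at 1 each, while the windows of Cd163 and Cd36 did not hold these letters. The AP-1 letters TGANTCA and the C/EBP letters TTGCNNAA were each found in 1 of 7 windows, that of Cd68 (7.81% and 10.8% of all windows), and the TATA box letters TATAAA in 0 (13.6%). The 7 windows had 38.0% to 50.3% G and C, beside a median of 52.7%, and a ratio of observed to expected CpG of 0 to 0.240, beside a median of 0.384. Genes with and without separation of the gels both held the PU.1 letters, and a match describes letters only.

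All 10 genes passed the low-count filter, which kept 17023 genes, and 9 of the 10 log2 fold changes were negative, beside 49.6% of all genes tested. The median was -0.59 over the 10 genes and 0.0038 over all genes. In 6 of the 10 genes all AKBA values were under all control values, beside 9.10% of all genes, and in 0 they were all above (9.28% of all genes). By edgeR's quasi-likelihood test with Benjamini-Hochberg adjustment over all genes, 0 of the 10 genes passed an adjusted p of 0.05, and neither did any other gene (0%). The lowest adjusted p was 0.331, shared by 5 of the 10 genes with other genes. At an unadjusted p under 0.05 edgeR gave 2291 genes, of which 1193 were lower with AKBA gel (7.01%) and the rest higher (6.45%), and 6 of the 10 receptor genes were among them. DESeq2 gave 298 genes at an adjusted p under 0.05, of which 205 were lower with AKBA gel (1.21%) and the rest higher (0.549%), and these held Msr1 (adjusted p = 7.1e-05), Cd163 (0.00123), Cd300ld (0.00141) and Mrc1 (0.0117). Since the genes were chosen on this comparison, nothing is read from those counts.

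The same 4 genes had an adjusted p under 0.05 in the authors' deposited table, which gave Msr1 0.00388, Cd300ld 0.00821, Cd163 0.0101 and Mrc1 0.0433. Of all 47729 rows in the authors' deposited table, 0.488% were lower with such a value. These rows include 19134 genes with no count, so this share has a wider base than those over the genes tested. None of the 4 is among the 273 genes (0.572%) marked significant there. The marked genes in the authors' deposited table all have a log2 fold change of at least 1 in size, and the 116 others with an adjusted p under 0.05 have one of at most 1. For the receptors the authors' deposited table gives Msr1 -0.90, Cd300ld -0.83, Cd163 -0.73 and Mrc1 -0.65.

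**Figure D2:**
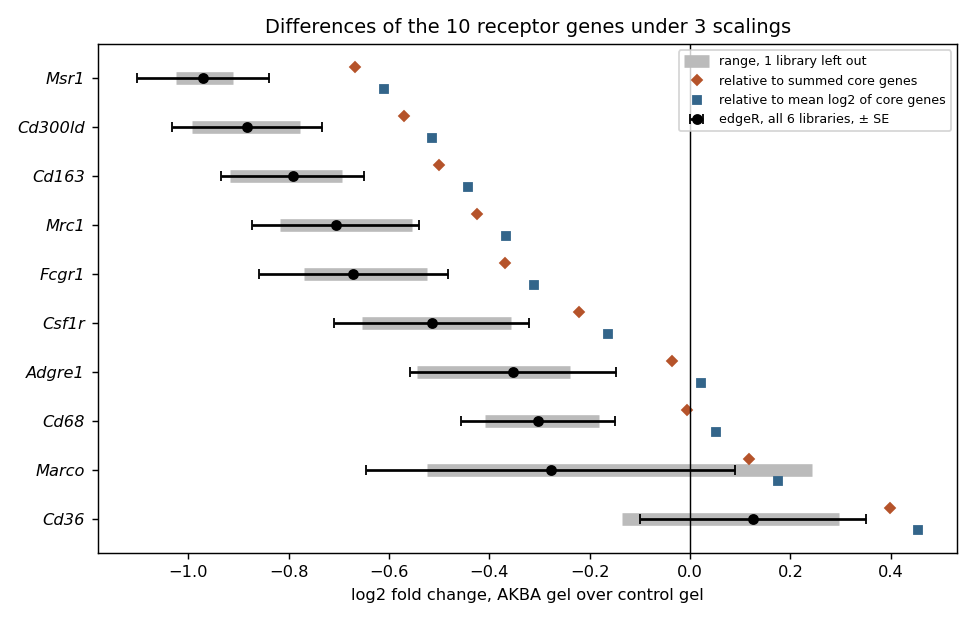
Log2 fold change, AKBA over control (x axis), for each receptor gene. Black points are edgeR values with all 6 libraries and SE, and grey bands the range with 1 library left out. Diamonds and squares are the differences relative to the 12 genes of the macrophage core list. Msr1 is lowest at -0.97 and Cd36 highest at 0.12, and the bands of Marco and Cd36 cross 0.

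The order of levels between genes was read from the deposited FPKM values, which are per gene length. With control gel Adgre1 (50.6 ± 10.9 FPKM, SD, n = 3), Csf1r (50.3 ± 7.79), Cd68 (48.5 ± 4.22), Mrc1 (45.4 ± 2.68) and Cd36 (43.6 ± 7.86) formed a first tier in which neighbours did not differ beyond their spread. Cd163 followed at 27.8 ± 0.412 FPKM and Cd300ld at 8.19 ± 0.998 FPKM, each apart from its neighbours. Msr1 (4.10 ± 0.216 FPKM), Marco (4.07 ± 1.86) and Fcgr1 (3.88 ± 0.741) were lowest and did not differ beyond their spread. With AKBA gel the first tier drew apart, from Cd36 at 48.4 ± 13.5 FPKM over Adgre1 (40.9 ± 9.18), Cd68 (40.4 ± 7.70) and Csf1r (36.2 ± 8.55) to Mrc1 at 28.5 ± 6.69 FPKM. Mrc1 thus stood beside the lineage genes with control gel and under them with AKBA gel, as group means with overlapping spreads.

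The genes of a list called macrophage core were also lower with AKBA gel, as were the T cell, mast cell and neutrophil markers given below. How far this list is particular to macrophages was not tested. The macrophage core list of 12 genes holds none of the 10 receptors. It had 12 of 12 negative log2 fold changes and a median of -0.35. In 7 of the 12 all AKBA values were under all control values, beside 9.10% of all genes. By edgeR 0 of them passed the threshold, and by DESeq2 2 were lower, beside 1.21% of all genes. The list was chosen with earlier results of these data known, so nothing is read from these counts. The 2 genes were, named after their values were seen, the integrin Itgam (log2 fold change -0.73 ± 0.14 in edgeR, DESeq2 adjusted p = 0.0097) and the lysosomal gene Laptm5 (-0.53 ± 0.14, DESeq2 adjusted p = 0.0471). The value of Itgam was further from 0 than the median of the receptors. The most abundant genes of the list were the lysozyme Lyz2 (705 ± 16.5 against 836 ± 207 CPM, log2 fold change -0.25 ± 0.21), and the complement components C1qb (139 ± 20.6 against 178 ± 17.9 CPM, -0.36 ± 0.14) and C1qc (127 ± 10.9 against 166 ± 22.3 CPM, -0.39 ± 0.13). The summed list stood at 1461 to 1571 CPM in the AKBA libraries and at 1530 to 2196 CPM with control gel. The groups overlapped through control gel replicate 2. In such bulk libraries fewer cells of a type and less RNA per cell cannot be told apart.

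Each receptor was therefore also set against the core genes of its own library. Per 1000 CPM of summed core genes, Cd163 stood at 58.5, 48.6 and 67.1 CPM in the AKBA libraries and at 74.8, 94.7 and 76.3 CPM in the control libraries. Msr1 stood at 5.91, 5.07 and 5.62 against 7.58, 10.9 and 8.18 CPM, and Cd300ld at 7.76, 7.48 and 8.12 against 9.13, 14.8 and 11.4 CPM. These genes and Mrc1 (130.1, 88.5 and 133 against 138, 196 and 138 CPM) were the 4 of 10 whose groups still did not overlap, beside 0.963% of all genes on this scale. For Mrc1 the gap was narrow. The log2 differences were -0.67 for Msr1, -0.57 for Cd300ld, -0.50 for Cd163 and -0.42 for Mrc1. They were -0.22 for Csf1r and -0.37 for Fcgr1, whose groups overlapped on this scale. For Adgre1 and Cd68 the log2 differences were -0.035 and -0.0063, and for Cd36 0.40, all with overlap.

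Lyz2 made up 39.5% to 47.4% of the summed core, so the 12 genes were also weighted equally through their mean log2 CPM, a choice made after seeing the data. The log2 differences were then -0.61 for Msr1, -0.51 for Cd300ld, -0.44 for Cd163 and -0.37 for Mrc1, again without overlap, beside 0.840% of all genes. Those of Adgre1 (0.022) and Cd68 (0.051) were slightly above 0. Relative to Cd68 alone, the ratio of Cd163 was 1.62, 1.85 and 1.86 with AKBA gel and 2.38, 2.72 and 2.40 with control gel. The groups of Mrc1, Msr1 and Cd300ld were apart on that scale too (1.50% of all genes). Relative to Csf1r, the groups of all 4 genes overlapped (0.470% of all genes were apart and lower). Relative to Adgre1, Cd163 and Msr1 stayed apart and Mrc1 and Cd300ld overlapped, beside 0.629% of all genes. The separation thus differed with the lineage gene used and among the 4 genes. As they were chosen on this comparison, nothing is read from these shares.

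**Figure D3:**
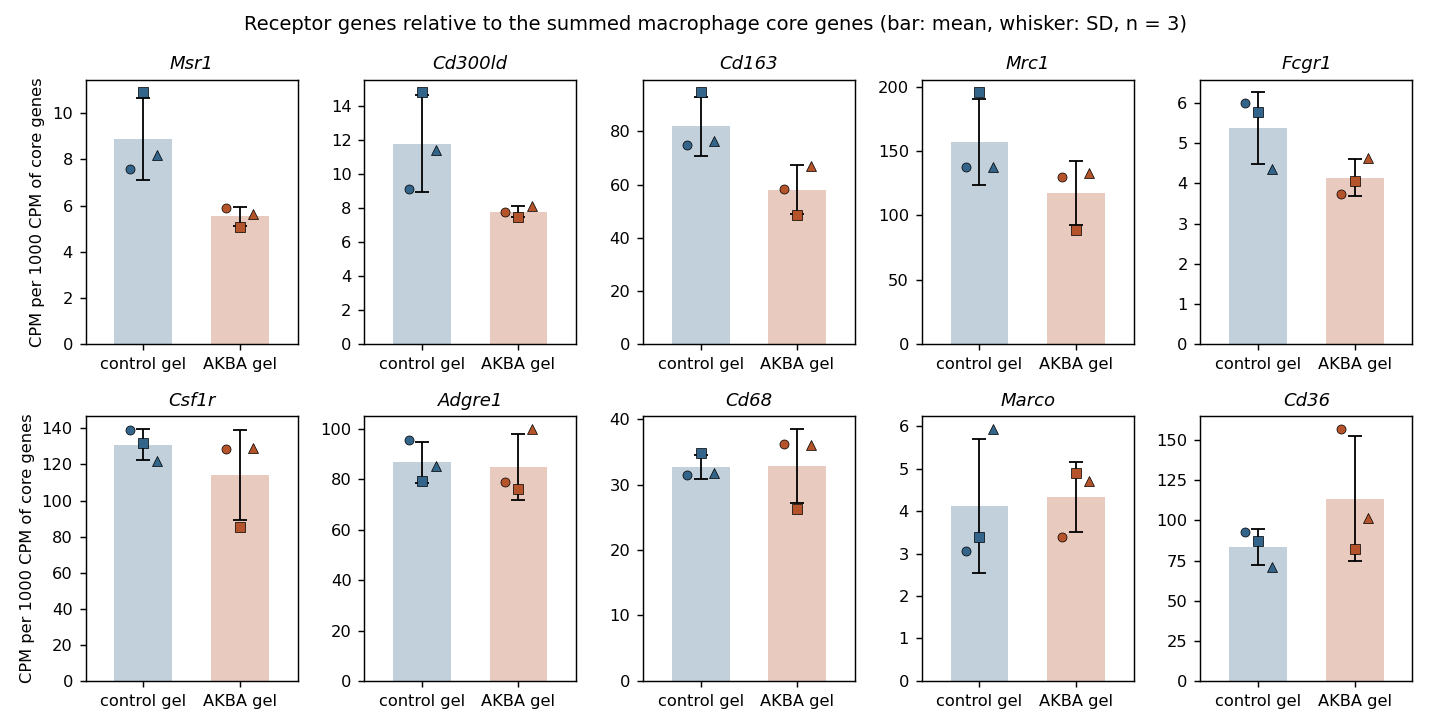
Receptor genes per 1000 CPM of the summed macrophage core genes (y axis, from 0) by gel; points are libraries, bars the mean and whiskers the SD (n = 3). Msr1, Cd300ld, Cd163 and Mrc1 stay apart on this scale, while Adgre1 and Cd68 are level between the gels.

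Variation between libraries of the same gel does not use the difference between the gels. The log2 levels were centred on their group mean, and Pearson's r was taken over the 6 libraries, which leaves 4 degrees of freedom. These values are descriptions, and the points share library depth and tissue make-up. Over the 45 pairs of receptor genes the median r was 0.42, with a range of -0.45 to 0.95. The closest pair was Cd68 and Csf1r (0.95), followed by Msr1 and Cd300ld (0.86), Cd68 and Cd163 (0.86) and Cd163 and Mrc1 (0.82). Cd68 (0.94), Cd163 (0.87), Csf1r (0.82) and Adgre1 (0.79) followed the mean of the other 9 genes most closely. Some lists of other cells followed the receptors as well. The median r of their genes with the receptor mean was 0.85 for mast cell, 0.82 for T cell and 0.80 for adipocyte markers. It was 0.62 for the macrophage core list, and other lists went down to -0.41 (alternative activation markers). Csf1r had an r of 0.98 with T cell markers and 0.57 with the core list. This variation was thus not particular to macrophage genes.

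Receptors other than Cd68, Cd163, Csf1r and Adgre1 followed the mean of the rest of the set less closely. Fcgr1 went with Adgre1 (0.78) and against Msr1 (-0.45), and the r of Cd300ld with Csf1r was -0.086. Cd36 followed the mean of the other receptors least (0.18), though its r was 0.72 with Csf1r and 0.61 with Cd68. Over the 26 other lists its highest r were with alternative activation markers (0.98), with 10 genes of lipid handling (0.97), with red cell markers (0.88) and with endothelial markers (0.80). For sebaceous gland and adipocyte markers r was 0.77 each, and for the macrophage core list 0.10. The r with that core list was also low for Mrc1 (-0.0037), Msr1 (0.15) and Cd300ld (0.15). It was 0.51 for Cd163, 0.57 for Csf1r, 0.59 for Fcgr1, 0.62 for Cd68, 0.81 for Marco and 0.92 for Adgre1. The most abundant lipid handling genes were Fabp5, a fatty acid carrier of keratinocytes and macrophages (1957 ± 687 against 3833 ± 1538 CPM, log2 fold change -0.97 ± 0.37), the lipoprotein Apoe (0.11 ± 0.20) and the lipase Lpl (-0.095 ± 0.23). Which cells carried the Cd36 counts was not tested.

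Genes outside the set whose within-gel pattern was most like the mean of the 10 receptors were Tmem181b-ps, Il10ra, Arhgef3, Fes, Stard8, Pfkfb3, Col7a1, Cyp4f17, Vwa9 and Csk, with r of 0.98 to 0.99. Among them Il10ra is the receptor chain for IL-10 and Fes a tyrosine kinase of myeloid cells, while Col7a1 encodes an anchoring collagen of the skin. Of 12251 candidates with a mean of at least 5 CPM, 112 had an r over 0.9. With 6 libraries such values arise in many genes, and nothing is read from the names.

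**Figure D4:**
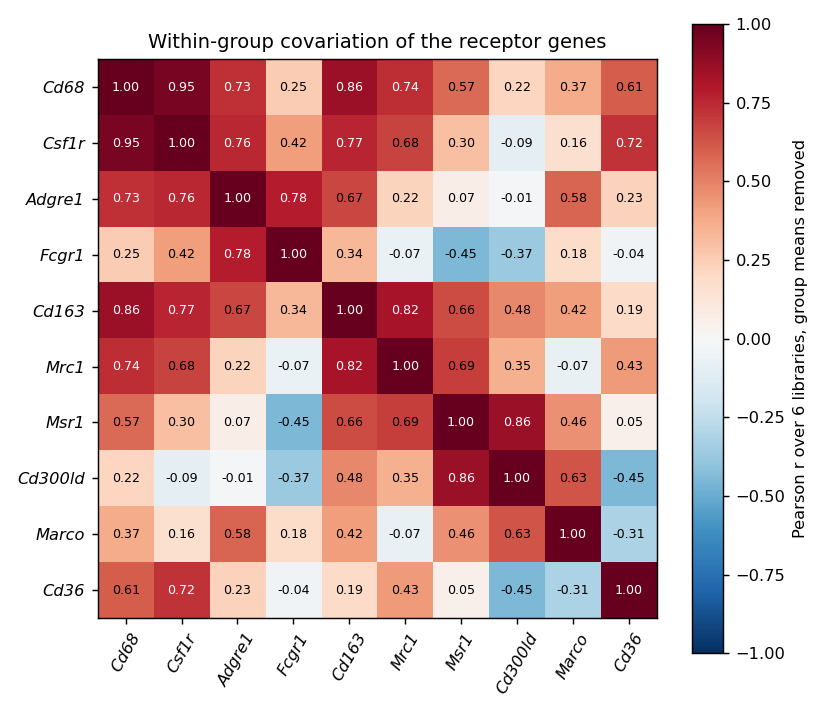
Pearson r of each pair of receptor genes over 6 libraries after removing the mean of each gel (colour and printed value, both axes genes). Cd68, Csf1r, Adgre1 and Cd163 form a block of positive values, and the other genes stand partly outside it.

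The pathway around the receptors was followed in 9 lists with 89 genes tested. By edgeR 0 of them passed the threshold, and by DESeq2 8 were lower and 0 higher, beside 1.21% and 0.549% of all genes. These lists too were chosen with earlier results known, and nothing is read from their counts. The 8 were, named after their values were seen, Fcgr2b, Il4ra, Fcgr3, Cd300lf, Hp, Hpx, Csf2rb and Stab1, with DESeq2 adjusted p from 0.0093 (Fcgr2b) to 0.0465 (Stab1). The ligands of the CSF1 receptor had differences of opposite sign. Csf1 stood at 39.1 ± 3.79 against 42.2 ± 4.62 CPM (log2 fold change -0.11 ± 0.13). Tgfb1, which many cells make, had means of 40.4 and 50.8 CPM (-0.33 ± 0.14). Il34, made by keratinocytes, stood at 18.5, 21.4 and 17.8 CPM in the AKBA libraries and at 15.5, 12.6 and 16.3 CPM in the control libraries. The groups of Il34 did not overlap, with the AKBA libraries above (0.38 ± 0.15), beside 9.28% of all genes in that direction. Of the 8 genes in the list of ligands and cytokines 5 were tested, with a median of -0.11, and Csf2, Csf3 and Il13 were too low.

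Cytokine receptors were lower in 7 of 8 genes (median -0.37), 6 of them without overlap, beside 49.6% and 9.10% of all genes. Il4ra, a chain of the IL-4 and IL-13 receptors, stood at 58.2 ± 3.49 against 136 ± 59.6 CPM (log2 fold change -1.22 ± 0.32), and Tgfbr2 at 219 ± 25.1 against 288 ± 29.8 CPM (-0.40 ± 0.14). Il13ra1, the partner chain of Il4ra, overlapped between the gels (122 ± 12.5 against 154 ± 36.4 CPM, -0.34 ± 0.18). Many of these receptors are made by other cells too. Transcription factors had no common direction, with 10 of 15 negative and a median of -0.039. The most abundant, were Klf4 (443 ± 79.6 against 587 ± 192 CPM, -0.40 ± 0.25) and Cebpa (450 ± 59.4 against 386 ± 66.1 CPM, 0.22 ± 0.18). Spi1, which encodes PU.1, stood at 21.96 ± 1.38 against 28.4 ± 1.57 CPM without overlap (-0.37 ± 0.11). Irf8, a factor of monocytes and dendritic cells, stood at 21.3 ± 3.92 against 23.4 ± 2.53 CPM (-0.13 ± 0.16).

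Other scavenger receptors were negative in 13 of 19 genes tested, with a median of -0.15. Stab1, a scavenger receptor of macrophages and sinusoidal endothelium, stood at 176 ± 67.1 against 345 ± 75.5 CPM (log2 fold change -0.97 ± 0.30), and Lrp1, an endocytic receptor of many cells, at 731 ± 168 against 1066 ± 81.6 CPM (-0.55 ± 0.20). The groups of both genes did not overlap. Axl, which binds dying cells through Gas6, was at 148 ± 7.04 against 172 ± 20.8 CPM (-0.22 ± 0.12) with overlap. Fc receptors and adaptors were negative in 8 of 8 genes (median -0.48). The inhibitory receptor Fcgr2b stood at 66.7 ± 14.1 against 125 ± 25.8 CPM (-0.91 ± 0.20) and the activating receptor Fcgr3 at 51.6 ± 3.06 against 76.4 ± 9.04 CPM (-0.57 ± 0.12), both without overlap. The IgG recycling receptor Fcgrt was also apart (81.9 ± 3.49 against 99.4 ± 5.19 CPM, -0.28 ± 0.096). Of the mannose receptor relatives, Mrc2 was at 92.1 ± 14.3 against 115 ± 4.93 CPM (-0.32 ± 0.13), while Pla2r1 (0.18 ± 0.20) and Ly75 (0.23 ± 0.21) were not lower.

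The partners of Cd163 in haemoglobin clearance differed among themselves. Haptoglobin, Hp, stood at 123 ± 38.0 against 258 ± 97.0 CPM without overlap between the gels (log2 fold change -1.07 ± 0.31). Hmox1, the haem oxygenase that degrades the haem taken up, was at 111 ± 11.5 against 119.8 ± 15.8 CPM (-0.10 ± 0.14), and the ferritin genes Ftl1 (-0.058 ± 0.15) and Fth1 (-0.080 ± 0.15) were close to 0. The list of 11 genes had a median of -0.080. The red cell markers, a measure of blood in the sample, summed to 97.5 to 232 CPM with AKBA gel and 104 to 151 CPM with control gel.

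Cd300ld lies in a block of CD300 genes on chromosome 11, from Cd300a (114890041) to Cd300lf (ending at 115133992). Of the 10 relatives tested 9 were negative (median -0.37). Cd300lf had the most negative value of the block, and it is named for that after its values were seen. This gene, first among those that share stretches with Cd300ld, stood at 0.834, 0.213 and 1.75 CPM in the AKBA libraries and at 2.71, 4.72 and 4.31 CPM in the control libraries. Its groups did not overlap at these low levels (log2 fold change -2.03 ± 0.58, DESeq2 adjusted p = 0.0222). Near Cd300ld, the gene deposited as AF251705, now called Cd300c2, stood at 10.2 ± 0.679 against 12.7 ± 2.10 CPM (log2 fold change -0.33 ± 0.16) and Cd300a at 10.2 ± 1.93 against 13.4 ± 1.54 CPM (-0.38 ± 0.18). Cd300lg, which lies apart at 102041509 to 102055620, was at 20.4 ± 3.19 against 21.6 ± 3.62 CPM (-0.080 ± 0.17). In its longest transcript 3.89% of the 50-base stretches of Cd300ld also occur in transcripts of other genes, mostly of this family. The share was at most 0.091% for the other 9 receptors, so reads of these could rarely be assigned to a close copy.

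Lists that mark macrophage states and related cells did not share 1 direction. Dermal resident macrophage markers were negative in 10 of 13 genes with a median of -0.13. Sepp1, the selenium carrier (1224 ± 79.0 against 1186 ± 415 CPM), Gas6 (381 ± 51.2 against 383 ± 141 CPM), Lyve1 (14.5 ± 9.10 against 22.7 ± 9.49 CPM), Folr2 (37.9 ± 3.51 against 38.5 ± 8.49 CPM) and F13a1 (242 ± 36.4 against 277 ± 50.5 CPM) all overlapped between the gels. Monocyte markers had a median of -0.45 over 7 genes, with Ccr2 at 33.3 ± 10.5 against 45.5 ± 9.58 CPM, Ace at 165 ± 37.3 against 227 ± 58.6 CPM and Nr4a1 at 9.84 ± 0.572 against 22.6 ± 9.48 CPM (DESeq2 adjusted p = 0.00966). Langerhans cell markers went the other way, with 7 of 8 positive and a median of 0.17. Cd74 was at 516 ± 138 against 464 ± 52.3 CPM and H2-Aa, another gene of antigen presentation, at 259 ± 84.3 against 230.04 ± 17.9 CPM. The lectin Cd207, which defines Langerhans cells, stood at 10.3, 12.5 and 7.24 CPM in the AKBA libraries and at 5.81, 4.58 and 2.83 CPM in the control libraries, without overlap (log2 fold change 1.18 ± 0.31, DESeq2 adjusted p = 0.026). Among alternative activation markers (median -0.22), Arg1 was at 44.6 ± 28.4 against 114 ± 34.0 CPM, Tgm2 at 51.7 ± 5.18 against 60.2 ± 7.67 CPM, and Retnla at 25.8 ± 32.7 against 3.93 ± 2.37 CPM, with a wide spread. Classical activation markers had a median of -0.41 over 8 genes and dendritic cell markers one of -0.077 over 8.

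Markers of several other tissue components also had negative medians. Endothelial markers were negative in 9 of 9 genes (median -0.47, summed 307 to 510 CPM with AKBA gel and 523 to 652 CPM with control gel), with Pecam1 at 74.0 ± 15.3 against 104.9 ± 11.3 CPM. T cell markers were negative in 7 of 7 tested (median -0.28), mast cell markers in 7 of 7 (median -0.36) and neutrophil markers in 7 of 7 tested (median -0.61), and the neutrophil-defining gene Ly6g had no count. Retnlg, Ngp and Ltf of the neutrophil list were too low to be tested. Its most abundant genes, S100a8 and S100a9, overlapped between the gels, and control gel replicate 3 was highest (1352 and 1989 CPM). How far the neutrophil list is particular to neutrophils was not tested. Fibroblast markers were negative in 8 of 9 genes (median -0.30), with Col1a1 at 6618 ± 1364 against 8300.1 ± 3317 CPM, and adipocyte markers had a median of -0.19, with Adipoq level (-0.0079 ± 0.24). Medians were above 0 for keratinocyte (0.46, 5 of 8 positive), sebaceous gland (0.61, 7 of 7), skeletal muscle (0.27, 6 of 7) and red cell markers (0.26, 4 of 6). The summed keratinocyte markers overlapped, at 44654 to 69214 CPM with AKBA gel and 42883 to 58345 CPM with control gel. The part of tissue make-up in the receptor differences was not tested.

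**Figure D5:**
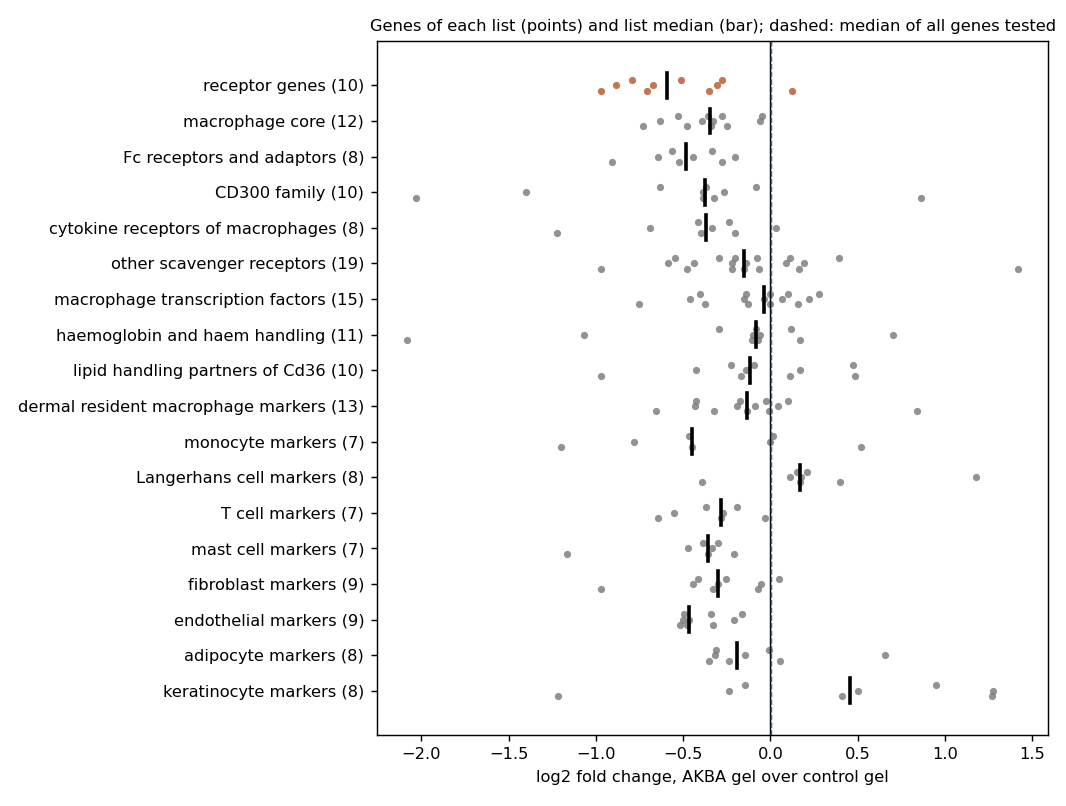
Log2 fold change, AKBA over control (x axis), for the tested genes (points) of 18 lists, with list medians as bars, the number tested in brackets and the median of all genes as a dashed line. The median of the receptor genes is -0.59, those of the macrophage core (-0.35) and endothelial markers (-0.47) are also below 0, and that of Langerhans cell markers (0.17) is above 0.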

How the data were processed

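Messenger RNA of mouse epidermis, separated from dermis with Dispase II per the labels' protocols, was counted in 3 AKBA gel and 3 control gel libraries grouped by their titles. The authors deposited whole-number counts and FPKM values for each library, and a log2 fold change, p-value and adjusted p-value per gene, per the file headers. The tools named per the submitters' processing notes are RSEM, edgeR and CASAVA 1.8, and the build is GRCm38; no source gives their roles, the annotation release or the method of the deposited comparison. The deposited log2 and p-value columns are quoted as the authors'.

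From the counts, edgeR 4.0.16 in R 4.3.3 gave TMM-scaled CPM, the default low-count filter and a quasi-likelihood test, adjusted by Benjamini-Hochberg over 17023 genes at 0.05; the SE is the log2 fold change divided by the square root of F. The fit was tested on simulated data. DESeq2 1.42.0, other filters and scalings, a replicate block and left-out libraries were alternatives. Within-gel r used log2 CPM with a prior count of 2. Genes named outside the 10 are the 3 most abundant of a list over all libraries, a few fixed names, and the 10 most alike within gels; 1 gene that this rule names is not reported here. The members and lists were chosen with earlier results of these data known. Positions are from GENCODE M21 (GRCm38). List genes absent under their symbol were matched by identifier.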

Additional observations from a re-analysis of the deposited data

How the results depend on the processing

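With each library left out in turn, edgeR gave 0 to 13 lower and 0 to 1 higher genes over all genes, all of them without control gel replicate 1, and none of the 10 receptors passed in any of these settings. DESeq2 gave 205 lower and 93 higher genes, with 4 of the 10 receptors, while the other filters, size factors and the pair of end libraries left out gave 0. The median of the receptors ranged from -0.69 to -0.47 with 1 library left out and was -0.42 without both AKBA gel replicate 2 and control gel replicate 3. The core list median ranged from -0.46 to -0.28 with 1 library left out. Of the receptors 8 kept a negative log2 fold change in all 12 count-based settings. With 1 library left out Marco ranged from -0.52 to 0.24 and Cd36 from -0.13 to 0.30. Marco turned positive without control gel replicate 3 (0.24), without both end libraries (0.13) and relative to the summed (0.12) or equally weighted core genes (0.17). Cd36 was -0.13 without AKBA gel replicate 1, and Adgre1 (0.022) and Cd68 (0.051) turned positive relative to the equally weighted core genes. The cause of these turns was not tested. The replicate block gave 0 genes and a receptor median of -0.60. Deviations of same-numbered libraries correlated at 0.072, 0.019 and -0.33, and those of differently numbered libraries at -0.48 to 0.43. Whether same-numbered libraries were matched cannot be told from these values. Marco, Fcgr1 and Msr1 rest on 101 to 382 counts a library.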
